A study of Lens culinaris with 18 samples.

Results

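Roots and leaves of lentil seedlings were compared directly after 24 h of water deficit. The seedlings (Lens culinaris, cultivar Sultan, wild type) were 7 days old when moved from perlite to aerated nutrient solution, and the deficit was imposed with 15% polyethylene glycol (PEG 6000), a polymer too large to enter cells freely that lowers the water potential around the root. The comparison rests on 2 libraries of root and 2 of leaf, all from seedlings in PEG for 24 h. Transcripts were described where the deposited value was at least 1 in at least 2 of these 4 libraries, which held for 23894 of the 124151 assembled transcripts. Roots and leaves of seedlings without PEG at 24 h, and of seedlings in PEG at 96 h, serve below to place the tissue difference, again with 2 libraries each. The labels call the replicates biological, but do not say how many seedlings each one pooled.

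Root and leaf meet a water deficit from opposite ends. The root is in contact with the drying medium, takes up water and ions and adjusts its growth and osmotic balance there, whereas the leaf loses water through stomata and receives hydraulic and hormonal signals such as abscisic acid. A leaf also spends much of its messenger RNA on photosynthesis, mostly on a few very abundant nuclear families for light capture and carbon fixation, which a root in the dark does not need. The transcripts here come from an assembly without a genome. Their identifiers stop at the gene level of the assembly (a g number), so each entry called a transcript here may pool several transcript forms. The deposited file does not pair these identifiers with gene names. No transcript could therefore be assigned a function, and the labelled tissues could not be checked against root or leaf markers.

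The labels were checked by likeness between libraries instead. Over the 23894 transcripts, the root libraries had a Spearman correlation of 0.951 with each other and the leaf libraries one of 0.965. Each of the 4 libraries was closer to every other library of its own tissue (0.722 to 0.965) than to any library of the other tissue (0.518 to 0.644). The lowest values within a tissue were with root 24 h control replicate 2 and leaf 96 h PEG replicate 2. Those are libraries in which a pair of transcripts from 1 assembly cluster took most of the total (92.4% in root 24 h control replicate 2, 81.1% and 76.3% in the leaf 96 h PEG replicates). The same pair took at most 0.00909% of the 4 libraries compared here.

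Values are TPM (reads of a transcript per unit of its length, scaled to a fixed total per library) multiplied by 1 TMM factor per library, a factor meant to align the bulk of transcripts between libraries. Totals were 592659 and 595410 in root replicates 1 and 2, against 749269 and 805241 in the leaf replicates. The leaf totals were on average 1.31 times the root totals, which is 0.39 on the log2 scale. Scaling all libraries to the same total, the mean total of the libraries compared, gives values proportional to TPM, called the TPM scale here. This shifts tissue differences towards root, by less for low values because of the 1 added before taking logs. The median difference was 0.33 on the TPM scale, against 0.02 as deposited. Replicates differed by a median of 0.26 on the log2(value + 1) scale in root and 0.21 in leaf, and differed more than 2-fold on that scale for 5.54% and 4.01% of transcripts. TPM keeps no read counts, so the depth is unknown, no counting error is given and a value of 0 is described as listed at 0.

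Both tissues expressed most of the transcripts. At a value of at least 1, 15590 of the 23894 (65.2%) were present in both libraries of both tissues. A further 2859 reached that value in both root libraries and in neither leaf library, and 2722 in both leaf libraries and in neither root library. Both root libraries and 1 of leaf reached it for 1025 transcripts, 1 root library and both of leaf for 1040, and 1 library of each tissue for 658. Transcripts of the one-tissue classes entered only through the tissue where they are high, so their difference follows from how they were chosen. Near the limit, 2811 transcripts had a second highest value between 1 and 1.5 and were described, and 6720 with one between 0.5 and 1 were not.

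Most transcripts differed between the tissues, in nearly equal numbers each way on the deposited scale with all 4 libraries. Root had the higher level for 6851 of the 23894 (28.7%) and leaf for 7124 (29.8%) (limma on log2(value + 1), adjusted p under 0.05), 58.5% in all. At least 2-fold differences on that scale were called for 10582 transcripts (44.3%), of which root was higher for 5092 (21.3% of all) and leaf for 5490 (23.0%). Among the 15590 transcripts present in all 4 libraries, which the choice of transcripts did not push apart, root was higher for 3819 and leaf for 4097, or 50.8% of them, with a median absolute difference of 0.68. Without any test, both root libraries lay above both leaf libraries for 40.8% of transcripts and below both for 40.3%, or 81.1% in all. These shares include the 2859 and 2722 transcripts at 1 or above in both libraries of 1 tissue only, which could not overlap. With 2 libraries against 2, random order without ties would already separate a share of 0.333. Scaled to the same total, root had the majority, with 9107 calls against 5600 for leaf (61.9% of calls in root, against 49.0% as deposited).

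The number of calls and their balance depended on having both replicates. It was 7677 and 8602 without leaf replicate 1 or 2, and 10319 and 9199 without root replicate 1 or 2, when the limit on low values was applied again. Root then held 60.2% and 61.4% of calls without a leaf library, and 36.4% and 36.0% without a root library. With the same transcripts tested it was 0 without leaf replicate 1 (limma, 10668 at an unadjusted p under 0.05), 3945 without leaf replicate 2, with 32.8% in root, and 8015 and 6931 without root replicate 1 or 2, with 45.9% and 46.6% in root. In these fits 1 tissue has a single library, assumed to vary like the other tissue. Where the limit was applied again, transcripts at 1 or above only in that tissue were left out. By construction this moves the balance of calls towards the other tissue. None of the calls made in the fits without 1 library turned direction. Of the transcripts that were not called, 4465 had a 95% interval of the difference that reached beyond 2-fold, so a missing call does not show equal levels. An interval wholly within 2-fold either way was found for 5746 transcripts (24.0%), called ones included.

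**Figure D1:**
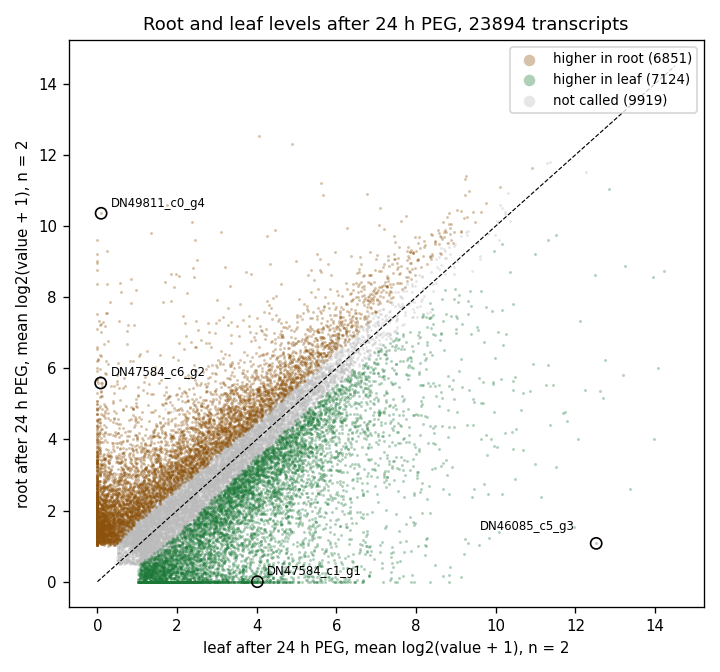
Mean level of each of the 23894 transcripts in root (vertical) and leaf (horizontal) after 24 h PEG, both on the log2(value + 1) scale, with n = 2 libraries a tissue. Points are coloured by the limma call, the dashed line marks equal levels, and circles mark the 4 transcripts described by name. Calls lie in similar numbers on both sides (6851 above, 7124 below), with a band of high leaf levels at the lower right that has few counterparts at the upper left.

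Large differences were mostly in the direction of leaf. At a minimum of 4-fold there were 1474 calls for root and 2386 for leaf, so root held 38.2% of calls. At 16-fold the numbers were 219 in root and 553 in leaf, with 28.4% in root, and at 64-fold they were 56 and 122. Leaf was in excess at 16-fold under median-ratio scaling (212 for root, 565 for leaf) and also on the TPM scale, where library totals are equal (264 for root, 441 for leaf). At 4-fold this held for median-ratio scaling (1434 and 2447) but not on the TPM scale, which gave 2100 calls for root and 1964 for leaf.

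**Figure D2:**
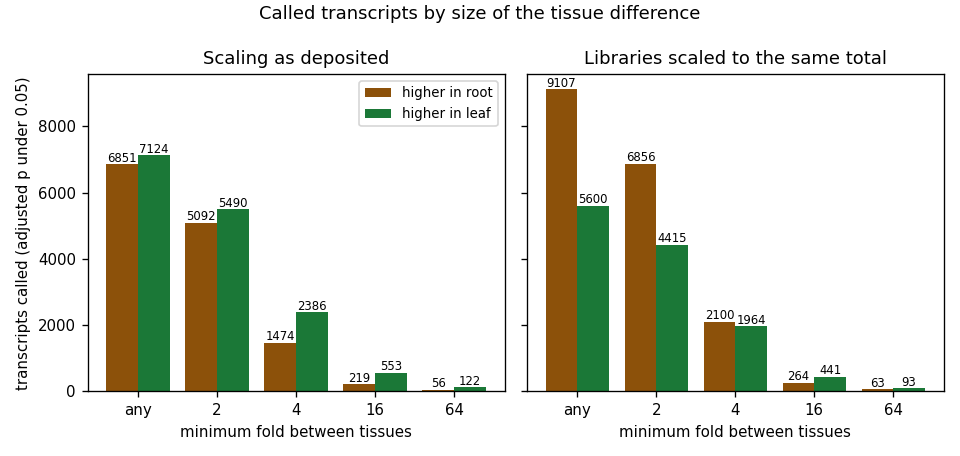
Number of transcripts called higher in root (brown) and higher in leaf (green) after 24 h PEG at increasing minimum fold on the log2(value + 1) scale, with values as deposited (left) and after scaling all libraries to an equal total (right). Root leads at low folds in the right panel only (9107 against 5600), while leaf leads at 16-fold in both (553 against 219 and 441 against 264).

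Most of the large differences were in transcripts of low or moderate abundance, as were most transcripts. Calls of at least 4-fold numbered 847 for root and 1120 for leaf among the 14985 transcripts with a mean over the 4 libraries below 10. They numbered 515 and 1041 among the 7902 between 10 and 100. There were 106 for root and 198 for leaf among the 952 between 100 and 1000, and 6 and 27 among the 55 from 1000. Relative to class size, such calls became more frequent with abundance. Leaf thus led at 4-fold in each class as deposited, and did so on the TPM scale too except below 10, where root had 1188 and leaf 882.

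Calls of any size were spread differently over abundance. Of 55 transcripts with a mean of at least 1000, 13 were higher in root and 31 in leaf, and their median difference was −1.80 (log2, root minus leaf). Scaled to the same total, the counts were 19 in root and 31 in leaf and the median −1.41. Between 100 and 1000, 414 of 952 were called for root and 318 for leaf, with a median of 0.37. Between 10 and 100, 2217 of 7902 were called for root and 2654 for leaf, a majority that turned on the TPM scale (3255 and 1998). Below 10, 4207 of 14985 were called for root and 4121 for leaf, and root's majority became a leaf majority with median-ratio factors (4087 and 4236).

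Leaf RNA was more concentrated in a few transcripts than root RNA. The 10 most abundant transcripts made up 6.91% and 7.52% of the total in the root replicates, against 15.3% and 17.0% in the leaf replicates. The top 100 made up 22.9% and 23.3% in root, against 35.5% and 38.5% in leaf. Reaching 50% of the total took 695 and 700 transcripts in root, against 405 and 314 in leaf. The libraries of the tissues did not overlap in any of these shares, which do not depend on the scaling factor. The single highest value was 8860 and 10640.4 in the root replicates, against 20275 and 22733 in the leaf replicates. In a share of a total, fewer cells of a type and less RNA per cell cannot be told apart, and neither can a rise of some transcripts and a fall of all others.

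**Figure D3:**
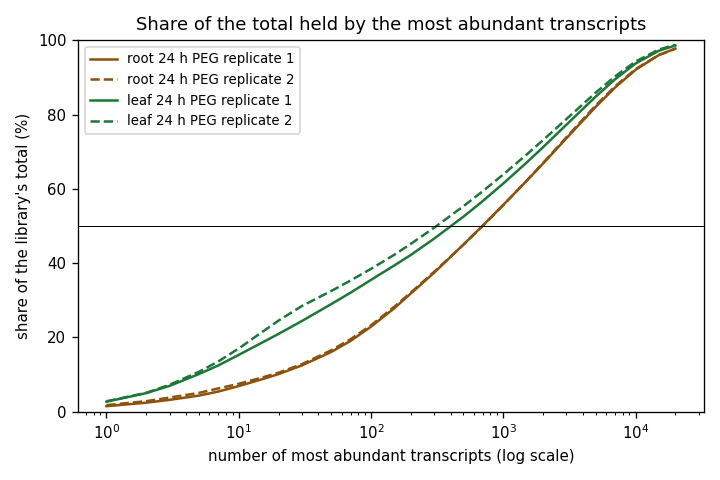
Share of each library's total (vertical, %) held by its most abundant transcripts (horizontal, number on a log scale) in the 2 root and 2 leaf libraries after 24 h PEG. The leaf curves lie above the root curves throughout, and cross the 50% line at 405 and 314 transcripts, against 695 and 700 in root.

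The leading transcripts of the tissues were also unlike in how far they were shared. Of the 100 with the highest mean in root and the 100 highest in leaf, 23 were on both lists. The root list ranged from 677 to 9750 in root, and 86 of its transcripts still averaged at least 100 in leaf. The leaf list ranged from 713 to 19335 in leaf, and 44 of its transcripts averaged at least 100 in root. Since each list was picked for high values in its own tissue, both must lean that way. The lean was a median of 1.08 (log2, root minus leaf) for the root list, against 4.70 (log2, leaf minus root) for the leaf list. At least 16-fold differences were called for 14 of the root list and 58 of the leaf list. The root list took 22.7% and 23.2% of the root totals and 9.43% and 10.8% of the leaf totals, while the leaf list took 9.45% and 8.90% of the root totals and 35.5% and 38.4% of the leaf totals.

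Some transcripts were restricted to a tissue, here meaning at least 10 in both of its libraries and under 0.5 in both of the other's. There were 154 in root (0.124% of all transcripts) and 307 in leaf (0.247%), of which 50 and 108 were listed at 0 in both libraries of the other tissue. Within their own tissue they had a median level of 26.7 in root and 23.9 in leaf, and 24 and 26 of them averaged at least 100. Together the root-restricted transcripts made up 1.97% and 2.05% of the root totals, and the leaf-restricted ones 1.76% and 1.84% of the leaf totals. None of the leaf top 100 was among them: the highest leaf-restricted mean was 574, below every transcript of the leaf top 100, while the highest root-restricted mean was 1326. Leaf led on the TPM scale as well (185 in root, 247 in leaf).

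Restriction at these limits was often not shared with other conditions. Of the 154 root-restricted transcripts, 41 met the same limits in the 24 h controls (26.6% of them, and 27.9% of the 147 restricted to root there). Of the 307 leaf-restricted ones, 87 did so (28.3%, and 32.1% of the 271 there). After 96 h of PEG, 23 of the root-restricted transcripts met the limits (14.9%, and 5.09% of 452) and 86 of the 307 leaf-restricted ones (23.8% of the 362 restricted to leaf there). Limits on values stand for a lower TPM in the 3 libraries dominated by the pair, so these counts are not alike across conditions. Many transcripts were abundant in the same tissue without PEG too: 75 of the 154 were at 10 or more in both root 24 h controls, and 184 of the 307 in both leaf 24 h controls. In contrast, 8 root-restricted and 42 leaf-restricted transcripts were under 0.5 in all 4 of the 24 h controls.

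The largest difference towards root was that of TRINITY_DN49811_c0_g4. It stood at 1125 and 1527 in the root 24 h PEG libraries, against 0 and 0.137 in the leaf 24 h PEG libraries. The groups were far apart, with both leaf libraries at or near 0. Its log2 difference on the log2(value + 1) scale was 10.27 (SE 0.20, limma adjusted p = 0.000145). With other settings the difference ran from 8.02 to 13.06, and the call was lost without leaf replicate 1 at the same transcripts tested (limma adjusted p = 0.0519, against 2.35e-09 to 0.0519 over its alternatives). In the root controls at 24 h it was at 26.6 and 56.0, and in the leaf controls at 0.557 and 0.458. It was thus higher in root without PEG as well, at a much lower level. After 96 h it was at 4.71 and 2.65 in root with PEG and at 10.2 and 11.7 in root without, and listed at 0 in all 4 leaf libraries. Among the 16 libraries, only those of root after 24 h PEG were above 56.0.

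Its difference between the tissues was greater after 24 h PEG than in the 24 h controls by 5.55 on the log2 scale (SE 0.50, limma adjusted p = 0.00500), and greater than after 96 h PEG by 8.07 (SE 0.38, limma adjusted p = 0.000565). The first of these calls was lost without leaf 24 h control replicate 1 or 2 or without leaf 24 h PEG replicate 2 (limma adjusted p 0.0553 to 0.0584, lowest 2.60e-05 over all alternatives). The assembly cluster it belongs to, meaning here the transcripts that carry the same DN number, held 8 transcripts. All 8 also carry the same c number, and shared sequence was not checked. All 8 were higher in root after 24 h PEG, by 2.59 to 10.27 on the log2(value + 1) scale, and all 8 differed from the 24 h controls and from 96 h PEG in their tissue difference (limma, adjusted p under 0.05). Summed over the cluster, values were 6882 and 8806 in the root 24 h PEG libraries, against 25.3 and 32.7 in the leaf 24 h PEG libraries. The cluster summed to 216 and 523 in the root 24 h controls and to 104 and 113 in root after 96 h PEG. Transcripts of a cluster can share reads, so the division among the 8 is uncertain and they are not 8 independent cases.

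The largest difference towards leaf was that of TRINITY_DN46085_c5_g3, the transcript ranked 13 by mean level in leaf. It stood at 1.99 and 0.488 in the root 24 h PEG libraries, against 4651 and 7451 in the leaf 24 h PEG libraries. Its log2 difference was −11.45 on the log2(value + 1) scale (SE 0.41, limma adjusted p = 0.000215), and ran from −12.37 to −9.89 with other settings. The call was lost only without leaf replicate 1 at the same transcripts tested (limma adjusted p = 0.0519, lowest 4.74e-08 over its alternatives). In leaf it was lower without PEG, at 731 and 637 in the 24 h controls and at 53.6 and 66.3 in the 96 h controls. It remained high after 96 h of PEG, at 3865 and 5546 in leaf and 0.273 and 0.418 in root. In root it did not exceed 9.86 in any of the 8 libraries.

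Its tissue difference was further towards leaf after 24 h PEG than in the 24 h controls by −4.62 (log2, SE 0.86, limma adjusted p = 0.0240). That call held under 12 of 26 alternatives (limma adjusted p 0.00262 to 0.310) and was lost without any 1 of the leaf 24 h control, leaf 24 h PEG or root 24 h PEG libraries, with no limit on low values and on the TPM scale. Against 96 h PEG the difference was 0.30 with a 95% interval from −1.08 to 1.69 (limma adjusted p = 0.695). Of the 9 transcripts of its cluster that were described, root was higher for 3 and leaf for 6 (limma, adjusted p under 0.05).

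**Figure D4:**
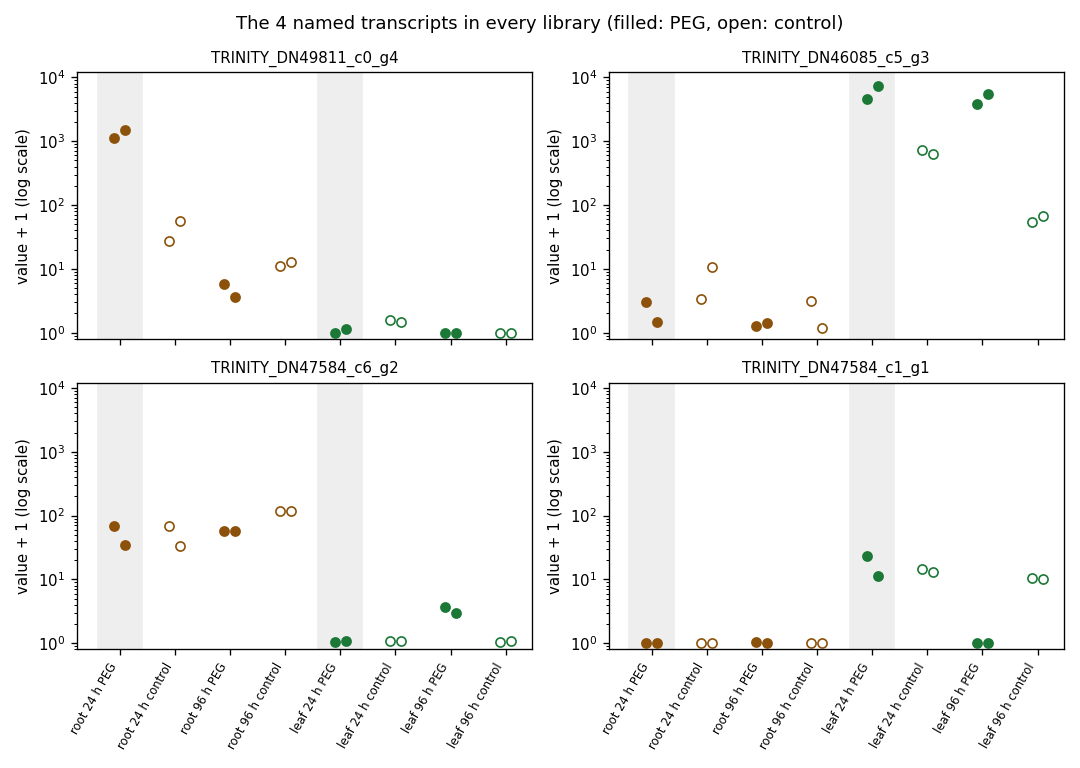
Value + 1 on a log scale for the 4 named transcripts in all 16 libraries, 2 points a group, in root (brown) and leaf (green), filled with PEG and open without. Shaded columns are the compared groups, root and leaf after 24 h PEG. The first transcript is high only in the root 24 h PEG libraries (1125 and 1527), and the second is high in leaf with PEG at both times.

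Some clusters held transcripts called in opposite directions, but clusters with a pair of called transcripts mostly had both called the same way. The 23894 transcripts fell into 13066 clusters, of which 4226 held 2 or more described transcripts and 2490 had at least 2 called. Among these 2490, 606 were called for root only, 795 for leaf only, and 1089 (43.7%) held calls in both directions. Large clusters have more room for both directions. Of 734 clusters with exactly 2 described transcripts, both called, 154 (21.0%) had them opposed and the others had both in 1 direction. Over all transcripts, 49.0% of calls were for root. Where clusters were cut finer, by the DN and the c number of the identifier, 367 of 1432 (25.6%) held both directions.

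Opposed pairs of 1 cluster were ranked by the smaller of their 2 absolute log2 differences, and the first by that measure was TRINITY_DN47584_c6_g2 with TRINITY_DN47584_c1_g1. They share a DN number but not a c number, so the finer definition does not place them in 1 cluster. Other pairs lie further apart in sum, as in the cluster of TRINITY_DN46085_c5_g3, whose transcripts reach 3.67 towards root. The first was at 66.8 and 33.1 in the root 24 h PEG libraries, against 0.037 and 0.081 in the leaf 24 h PEG libraries (log2 difference 5.50, SE 0.36, limma adjusted p = 0.000543). The second was listed at 0 in both root 24 h PEG libraries, against 22.1 and 10.3 in the leaf 24 h PEG libraries (limma adjusted p = 0.00140). Neither overlapped between the tissues, which the rule for naming required. The calls were lost in some fits with the same transcripts tested: without leaf replicate 1 for both, without leaf replicate 2 for the first, and without root replicate 1 or 2 for the second (limma adjusted p 0.0515 to 0.0577, lowest 1.04e-07 and 7.97e-07 over the alternatives).

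This opposition was present without PEG too. In the 24 h controls the first was at 68.4 and 32.5 in root, against 0.075 and 0.076 in leaf. There the second was listed at 0 in both root libraries and was at 13.4 and 11.9 in leaf. A change of the tissue difference from the 24 h controls was not called for either of them: it was 0.02 with a 95% interval from −1.50 to 1.54 for the first (limma adjusted p = 0.990), and −0.25 with one from −1.47 to 0.97 for the second (limma adjusted p = 0.783). After 96 h of PEG the second was listed at 0 in both leaf libraries and at 0.062 and 0 in the root libraries, while the first was at 56.6 and 55.9 in root and 2.73 and 1.94 in leaf. The first one's tissue difference was greater after 24 h than after 96 h PEG by 1.39, which was not called (limma adjusted p = 0.0545, 0.00460 to 0.753 over 26 alternatives, 8 of them with a call). Of the cluster's 10 described transcripts, root was higher for 3 and leaf for 6.

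The tissue difference after 24 h PEG followed that in the 24 h controls in part. Across the 23894 transcripts, which are not independent replicates, the differences (root minus leaf, from libraries not shared between the conditions) had a Pearson correlation of 0.72, and of 0.72 with root 24 h control replicate 1 alone. Of the 5092 transcripts at least 2-fold higher in root after PEG, 2358 (46.3%) were also at least 2-fold higher in root by the control means, 2578 (50.6%) lay within 2-fold and 156 (3.06%) were at least 2-fold higher in leaf. Of the 5490 higher in leaf, 3508 (63.9%) had the same direction at that size in the controls, 1908 (34.8%) lay within 2-fold and 74 (1.35%) were opposed. With root control replicate 1 alone, 2690 and 3146 kept their direction at that size. Transcripts chosen for a large difference in one condition tend to show a smaller one in another, so these shares are descriptive.

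Tested directly, the tissue difference after 24 h PEG departed from that in the 24 h controls for 3054 of the 23894 transcripts, or 12.8%, against 13.4% of all 29076 transcripts in that fit (limma interaction, adjusted p under 0.05). It was greater, meaning shifted towards root, for 2024 (9.05% of all tested were) and shifted towards leaf for 1030 (4.33% of all tested). The shares among the described transcripts are near those of all tested. Among the 2024, the root mean moved more between the conditions for 1224 and the leaf mean for 800. Among the 1030, root moved more for 326 and leaf for 704. Of the 3054, 790 had the same sign in both conditions and a wider difference after PEG (377 higher in root, 413 higher in leaf), 702 had the same sign and a narrower one, and for 1147 the sign differed, small differences included. These classes leave some of the 3054 out, so 790 and 702 are not the balance of wider and narrower differences over all of them. Some of the 3054 had a difference of 0.0 in the controls, which can only widen. Of the 4 groups in this fit, replicates differed most in the root 24 h controls, by a median of 0.58 on the log2(value + 1) scale.

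These counts are unsettled. They were 10111 and 5950 without root 24 h control replicate 1 or 2, but 12 and 13 without leaf 24 h control replicate 1 or 2. They were 720 and 533 without root 24 h PEG replicate 1 or 2, and 211 and 0 without leaf 24 h PEG replicate 1 or 2 (limma, 4861 at an unadjusted p under 0.05 for the last). The share shifted towards root was 66.3%, and 41.0% once the dominating pair was taken out and totals were made equal, so the majority is not settled either. With the replicate number as a block 1816 were called. In the fits without 1 library, the group it came from added nothing to the spread. Without a root 24 h control, the group whose replicates differed most was thus missing from the spread.

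More transcripts were called against 96 h of PEG, but from a fit with other groups, so the counts do not rank how broad the changes were. Replicates differed by a median of 0.15 in root and 0.37 in leaf after 96 h PEG, on the log2(value + 1) scale. In the 24 h controls the medians were 0.58 in root and 0.12 in leaf. The tissue difference differed for 10810 of the 23894 transcripts, or 45.2%, against 46.4% of all 30407 in that fit (limma interaction, adjusted p under 0.05). It was further towards root after 24 h for 2743 (12.4% of all tested were) and further towards leaf for 8067 (34.0% of all tested). The median tissue difference of the same transcripts was 0.02 after 24 h PEG, against 0.61 after 96 h PEG. The balance of directions moved with the scaling: 25.4% of calls were towards root on the deposited scale, 39.9% under median-ratio scaling and 5.40% on the TPM scale. It was 11.9% with the pair removed and the remaining totals made equal. Both leaf 96 h PEG libraries were dominated by the pair, and its part in these calls was not tested. The number of calls was 7138 without leaf 24 h PEG replicate 2, and 6600 and 6608 without root 96 h PEG replicate 1 or 2.

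The large differences were less even between the times. Over the 30407 transcripts, mean differences of at least 16-fold towards root numbered 219 after 24 h PEG, against 492 after 96 h PEG, while those towards leaf numbered 553, against 558. Over the 29076 transcripts of the 24 h fit, those towards root numbered 219 with PEG, against 222 in the controls, and those towards leaf 553, against 690. Of the 5092 transcripts at least 2-fold higher in root after 24 h PEG, 60.4% were so by the means at 96 h and 6.21% were opposed. Of the 5490 higher in leaf, 41.2% were so at 96 h and 12.2% were opposed. In all, 984 transcripts were at least 2-fold apart in opposite directions at the 2 times, against 230 between PEG and control at 24 h, and the change was called for 902 and 152 of them. These counts are on the deposited scale. The leaf 96 h PEG replicates, dominated by the pair, listed 23194 and 23760 transcripts above 0, against 44724 and 45510 in leaf after 24 h PEG. Root 24 h control replicate 2, also dominated, listed 24351, against 45879 in replicate 1. The part of these listings in the counts was not tested.

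**Figure D5:**
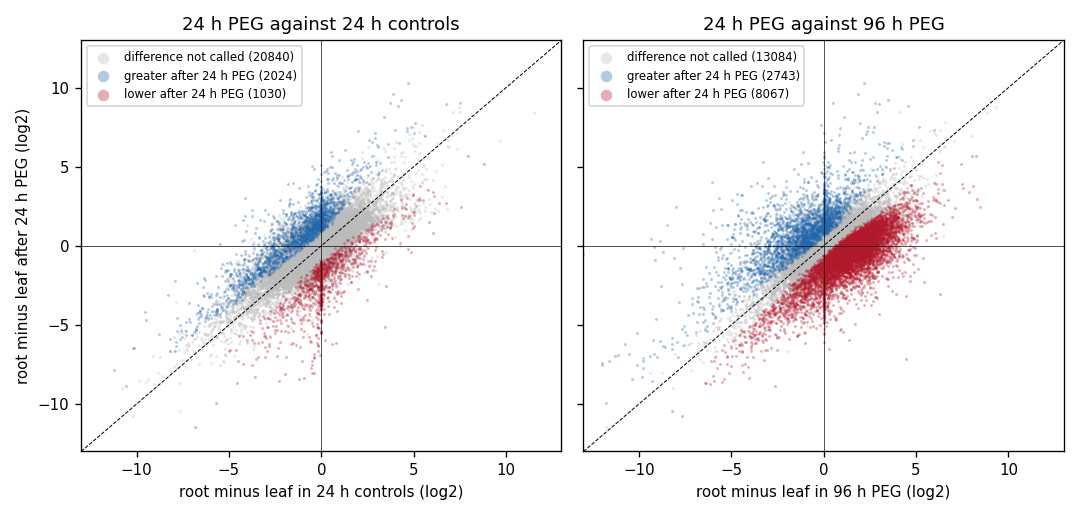
Root minus leaf difference of each of the 23894 transcripts after 24 h PEG (vertical) against that in the 24 h controls (left) and after 96 h PEG (right), all on the log2(value + 1) scale from means of 2 libraries. Colours give the limma call on the change of the difference and the dashed line marks no change. Calls are fewer on the left (3054) than on the right (10810), where most lie below the line (8067). The fits behind the panels differ in spread, so these counts do not rank how broad the changes were.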

How the data were processed

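Polyadenylated RNA of whole roots and leaves was made into strand-marked libraries and sequenced in pairs, per the labels' protocols. The tools listed, per the submitters' processing notes, are FastQC 0.11.5, Trimmomatic 0.35, edgeR and RSEM, without their roles. The identifiers carry the prefix TRINITY, the name of an assembler. The sources used here do not otherwise name the assembler, and do not give the aligner. Each deposited value is a signal, not a count: in every library 100% of values above 0 and below 0.5 lay on whole multiples, within rounding, of TPM with 2 decimals times 1 factor. Of 18 samples, 2 of stem were not analysed here.

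The 4 libraries were fitted with limma 3.58.1 in R 4.3.3 on log2(value + 1), with a coefficient for each group, a robust eBayes step with a mean trend, and Benjamini-Hochberg adjustment over all transcripts tested (at least 2 libraries at 1 or above). Changes of the tissue difference were interactions in fits of 8 libraries each. Spread differed several-fold between groups, so each fit took it from the groups compared. Within a fit, all groups shared 1 spread per transcript, so the p-values do not allow for unequal spread among those groups. With 2 libraries against 2, an exact permutation test cannot go below p = 0.333, so calls rest on the model's shared spread. The pipeline was also run on simulated data in which all groups shared 1 spread per transcript. Spread differed between groups in the real data, so that run cannot vouch for calls under unequal spread. At most 2 identifiers each way are named: the largest called difference, and the opposed called pair within 1 cluster whose smaller absolute log2 difference was largest, each with a mean of at least 10 in its higher tissue and no overlap between tissues. Alternatives were other pseudocounts, filters, scalings, spreads, a replicate block and each library left out. The transcripts and rules were chosen with earlier results of these data known.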

Additional observations from a re-analysis of the deposited data

Results flagged for a closer look

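The tissue difference after 24 h PEG, root minus leaf on the log2(value + 1) scale, was tested against that of another condition, and a called change is what marks the results here. Against the 24 h controls it changed for 3054 of the 23894 transcripts, and against 96 h PEG for 10810 (limma interaction, adjusted p under 0.05). For TRINITY_DN49811_c0_g4 it was greater by 5.55 than in the 24 h controls and by 8.07 than after 96 h PEG. For TRINITY_DN46085_c5_g3 it was shifted by −4.62 from the 24 h controls. For TRINITY_DN47584_c1_g1 it was shifted by −4.06 from 96 h PEG, where the transcript was listed at 0 in both leaf libraries and at 0.062 and 0 in the root libraries. That last call held under each of the 24 alternatives in which the transcript was tested. Each of them kept at least 1 leaf 96 h PEG library, and the dominating pair took 81.1% and 76.3% of those libraries. They listed 23194 and 23760 transcripts above 0, against 44724 and 45510 in leaf after 24 h PEG. Whether the 0 values there mean absence was not tested.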

How the results depend on the processing

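Calls between root and leaf after 24 h PEG numbered 13975, and 9261 with a limit of 5 on low values. With single libraries left out they ran from 7677 to 10319. Keeping the same transcripts tested, an alternative chosen after seeing the data, gave 0 and 3945 without leaf replicate 1 or 2, and 8015 and 6931 without root replicate 1 or 2. Changes from the 24 h controls numbered 3054, but 595 with no limit on low values, 270 with libraries scaled to the same total, 1816 with the replicate block, 5374 with spread from all 16 libraries, and from 0 to 10111 with single libraries left out. Keeping the same transcripts tested gave 284 and 332 without leaf 24 h control replicate 1 or 2, 797 and 655 without leaf 24 h PEG replicate 1 or 2, 10068 and 6110 for the root 24 h control replicates, and 1213 and 813 without root 24 h PEG replicate 1 or 2. The cause was not tested. At the same total with the dominating pair taken out, changes from the 24 h controls numbered 3267. Changes from 96 h PEG numbered 10810, with 20237 at the same total and from 6600 to 13653 with single libraries left out. Only for this contrast did calls turn, 1000 of them, at the same total, where the dominating pair by construction lowers all other transcripts of the leaf 96 h PEG libraries. There TRINITY_DN46085_c5_g3 was at −2.48 in place of 0.30 (limma adjusted p = 0.0189, 0.0189 to 0.971 over its alternatives). Restricted transcripts numbered 154 in root and 307 in leaf, and 79 and 154 with the other tissue under 0.1, and 332 and 528 from a level of 5, tried after seeing the data. Without single libraries they ran from 175 to 229 and from 333 to 423, since limits on fewer libraries are easier to meet. Clusters with both directions were 1089, and 367 in the finer definition, also tried later. With the replicate block 14437 transcripts differed between the tissues and 10228 changed from 96 h PEG. The numbers are not known to pair root with leaf samples, and the replicate deviations of the tissues had a correlation of 0.11 over 23894 transcripts. For the 4 named transcripts, 251 of 284 values kept direction and side of the threshold, 24 lost the call, 8 gained it and 1 turned. Unknown depth limits what can be said of low values.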
